A study of Mus musculus with 4 samples.

Results

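The cytosolic ribosomal protein genes were taken as the genes of the deposited matrix whose symbol starts with Rps or Rpl followed by a digit, together with Rpsa, Rplp0, Rplp1 and Rplp2. Symbols containing -ps, which name pseudogenes, and the Rps6k kinases were left out. This gave 86 of 32285 genes, and the annotation lists all 86 as protein coding. They comprised 31 genes of the small subunit, 43 of the large subunit outside the stalk, 3 of the stalk, and 8 paralogs or retrocopies. The last member, Rps19bp1, encodes a protein that binds Rps19 and is by its name no ribosomal protein. Every member had at least 1 UMI (unique molecular identifier, a tag that marks a captured transcript), and 85 had at least 50 UMIs over all kept cells.

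The cytosolic ribosome reads mRNA with its small subunit and joins amino acids with its large subunit, and each subunit is built from ribosomal RNA and a set of proteins that are mostly present in a single copy. The mRNAs of these proteins begin with a run of pyrimidines, the TOP motif, through which growth signals acting via mTOR set their translation together with that of several elongation and initiation factors. Islet beta cells devote much of their translation to insulin, whereas resting lymphocytes are small cells with little cytoplasm. A few ribosomal proteins have a paralog encoded elsewhere in the genome, which can be used in particular tissues.

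The study compared islets of NOD mice, a strain that develops autoimmune diabetes, aged 5 weeks. Per the labels, 2 samples had Xbp1 deleted in beta cells (Xbp1{beta}-/-) and 2 carried the floxed allele (Xbp1fl/fl), and mice of both groups were injected with tamoxifen. Islets were picked by hand, cultured overnight and dispersed before 10x library preparation, and the sources used here do not name the Cre driver. The matrix pools 4 libraries, marked 1 to 4 in the barcodes, and 0 labels equal such a mark, which leaves the genotype of each library unknown. The genotypes were therefore not compared, and p-values were not computed. Values are shown library by library, and the numbers of the libraries have no order.

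After filtering, 16146 of 19987 barcodes were kept, with 3635, 5268, 3455 and 3788 cells in libraries 1 to 4 at medians of 13287, 33052, 15759 and 27499 UMIs per cell. Beta cells had at least 5% of UMIs from Ins2, and were divided at 0.5% of UMIs from Spp1, a secreted phosphoprotein. Alpha cells had at least 5% from Gcg, and delta cells at least 3% from Sst. Lymphoid cells reached none of these levels and carried B or T cell markers. Another 631 cells that passed more than 1 hormone level were left out. The libraries differed widely in makeup before any result. Lymphoid cells numbered 920, 81, 693 and 9 in libraries 1 to 4. Beta Spp1-high cells numbered 355, 131, 377 and 219, and beta Spp1-low cells 234, 3211, 356 and 2002. Alpha cells numbered 252, 769, 298 and 727, and delta cells 220, 426, 334 and 403. Library 4 was left out where lymphoid cells were compared, as fewer than 50 were present. In every library each of the 8 beta, 5 alpha and 3 delta markers had UMIs in its own class, as did each of the 4 B and 5 T markers in the lymphoid cells of libraries 1 to 3. Ins2, Gcg, Sst and the B and T markers also served to make the classes, and markers of other classes had UMIs in beta cells too. Having UMIs therefore does not test the classes. Of barcode sequences, 45 occurred in more than 1 library.

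Promoter sequences from RefSeq (build GRCm38.p6) were found for 66 of the 86 members. A pyrimidine tract, taken as a C followed by at least 5 bases that are C or T on the coding strand and beginning within 20 bases of the transcription start on either side, was present in 40 of the 66 (60.6%). Among all 27025 genes with a promoter in the table the share was 32.5%. The motif CCGGAA, searched on both strands in the 250 bases before the start, was found in 25 members (37.9%) and in 12.2% of all genes. TATAA on the coding strand, 16 to 40 bases before the start, was found in 5 members (7.58%) and in 3.83% of all genes. A match is a description of letters, and no match says only that they are absent from this window.

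The 65 bases around the start, 40 before it and 25 from it, are shown for 3 paralog pairs and for 4 further members on which the comparisons turn, with the tract in capitals. Rps27l lies at chr9:66946046-66946110 on the plus strand, and its partner Rps27 at chr3:90213624-90213688 on the minus strand. Rpl22l1 lies at chr3:28805468-28805532 and its partner Rpl22 at chr4:152325686-152325750, both on the plus strand. Rpl36al lies at chr12:69184043-69184107 on the minus strand and its partner Rpl36a at chrX:134585614-134585678 on the plus strand. Rpl41, which differed little between lymphoid and beta cells with hormone genes out of the total, lies at chr10:128549144-128549208 on the minus strand. Rps12, which differed much, lies at chr10:23787185-23787249, also on the minus strand. Rpsa, lower in beta than in alpha cells, lies at chr9:120127726-120127790 on the plus strand. Rpl39, higher in beta than in alpha cells, lies at chrX:37085198-37085262 on the minus strand.
Rps27l: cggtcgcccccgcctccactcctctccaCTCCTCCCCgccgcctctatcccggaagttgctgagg
Rps27: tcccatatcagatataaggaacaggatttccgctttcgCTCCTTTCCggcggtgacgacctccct
Rpl22l1: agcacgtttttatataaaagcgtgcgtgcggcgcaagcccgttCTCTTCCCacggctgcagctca
Rpl22: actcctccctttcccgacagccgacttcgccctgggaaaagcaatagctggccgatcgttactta
Rpl36al: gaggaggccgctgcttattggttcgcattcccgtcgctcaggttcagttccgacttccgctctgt
Rpl36a: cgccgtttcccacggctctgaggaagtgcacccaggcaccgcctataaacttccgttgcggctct
Rpl41: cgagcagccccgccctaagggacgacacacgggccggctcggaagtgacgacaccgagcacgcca
Rps12: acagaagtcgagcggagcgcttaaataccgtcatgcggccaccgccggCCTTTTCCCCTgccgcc
Rpsa: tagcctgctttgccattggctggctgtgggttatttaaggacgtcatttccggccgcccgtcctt
Rpl39: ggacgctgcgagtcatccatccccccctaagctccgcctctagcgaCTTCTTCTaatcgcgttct
Rps27l and Rps27 thus both carry a tract. Of the Rpl22 pair only Rpl22l1 carries one that begins within 20 bases of the start, and neither gene of the Rpl36a pair does. Pyrimidine runs that begin further from the start, such as that near the left end of the Rpl22 sequence, are left in lower case.

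The share of UMIs from all members was set against the total without 7 hormone genes (Ins1, Ins2, Gcg, Sst, Ppy, Pyy and Iapp). In lymphoid cells the members took 26.6%, 28.5% and 26.7% of these UMIs in libraries 1 to 3, more than in any class outside them. In beta Spp1-high cells they took 9.65%, 9.80%, 9.39% and 9.66% in libraries 1 to 4, and in beta Spp1-low cells 10.8%, 10.6%, 11.1% and 10.3%. In alpha cells the share was 10.9%, 10.7%, 11.1% and 11.3%, and in delta cells 12.2%, 12.1%, 12.5% and 11.8%. The order from beta Spp1-high to beta Spp1-low, alpha and delta cells was the same in each of the 4 libraries. It depends on how the share is taken. With the mean of each cell's share the median over libraries was 9.80% in alpha cells, below beta Spp1-low cells. Without the deepest 10% of cells it was 10.3% in alpha cells, again below beta Spp1-low cells, and with hormone genes kept in the total it was 5.16% in beta Spp1-high and 5.07% in beta Spp1-low cells. Over all libraries the ranges of beta Spp1-low and alpha cells overlapped, while the lowest delta value lay above every value of the other hormone classes.

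Cells outside the hormone classes, called by the marker list that made up at least 0.2% of their UMIs, spread widely. Cells with fibroblast markers held 20.7% and 20.8% in libraries 1 and 3, and cells with ductal markers 16.3% and 16.7%. Cells with endothelial markers held 14.2%, 11.1%, 14.3% and 10.0% in libraries 1 to 4, a spread of 1.42-fold that was wider than in any hormone class. Cells with dendritic markers held 10.8% and 12.5% in libraries 1 and 3, and cells with macrophage markers 9.06%, 9.73% and 10.0% in libraries 1 to 3. Immune cells therefore stood at both ends of the range. Within the lymphoid cells, B marker cells held 28.0% and 27.8% in libraries 1 and 3, and T marker cells 23.2%, 28.0% and 22.9% in libraries 1 to 3. Exact 95% intervals cover counting error only and were narrow, 28.4% to 28.6% for the lymphoid cells of library 2.

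**Figure D1:**
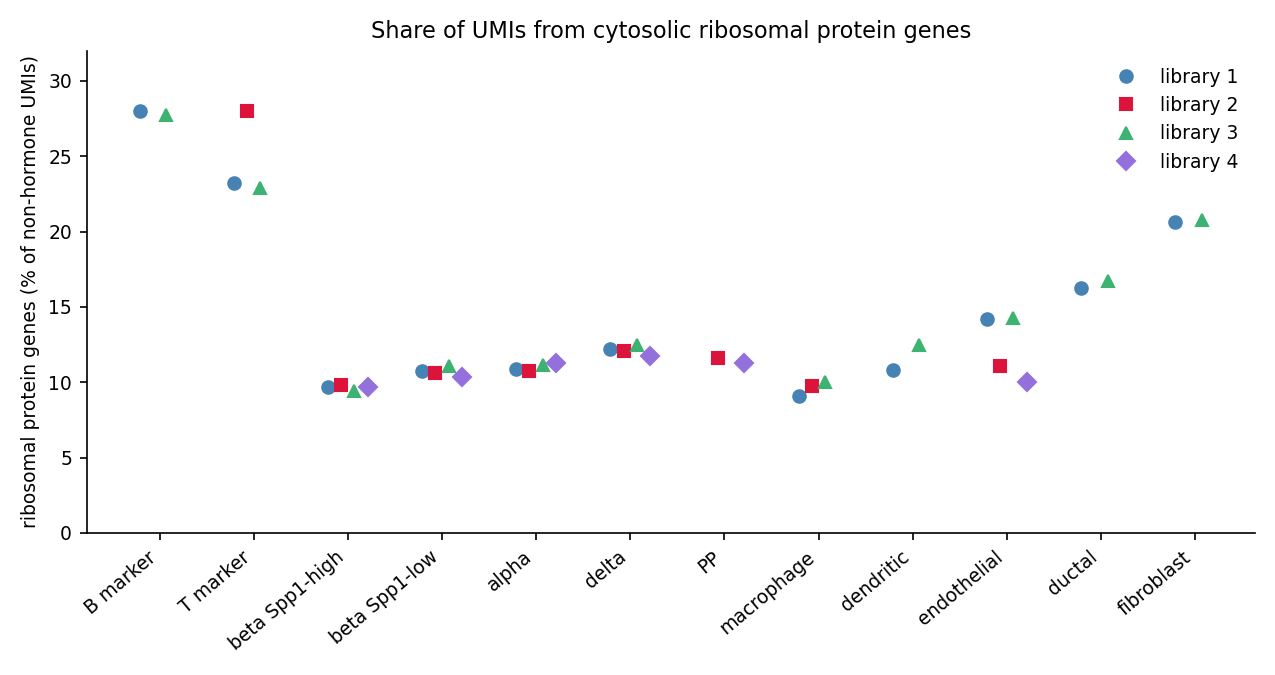
Each point is the share of non-hormone UMIs from the 86 ribosomal protein genes, in percent on the y axis, for 1 class of cells (x axis) in 1 library (colour and shape), where at least 50 cells were present. Beta, alpha and delta classes lie between 9.39% and 12.5%, and B and T marker cells between 22.9% and 28.0%.

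Depth and other measures of the cells differed between the classes. Median UMIs per cell were 4458.5, 4740 and 4572 in lymphoid cells of libraries 1 to 3, and 44006, 42221.5, 45314 and 37371 in beta cells of libraries 1 to 4. Alpha cells had 11764, 12488, 12977 and 11251, and delta cells 20631.5, 16665.5, 21976 and 14476. Gm42418, a transcript that overlaps ribosomal RNA, stood at 3525, 5709, 2804 and 9286 CPM (UMIs scaled to a total of 1000000) in beta cells and at 19242, 22672, 20904 and 31492 CPM in alpha cells. Mitochondrial genes took 3.65% to 4.98% of non-hormone UMIs in beta, 5.11% to 5.90% in alpha and 2.28% to 2.86% in delta cells. The median share of UMIs from Ins2 was 0.102%, 2.89% and 0.136% in lymphoid cells of libraries 1 to 3. In alpha cells it was 0.0719%, 1.27%, 0.0922% and 0.631%, and in delta cells 0.0663%, 1.00%, 0.0760% and 0.533%. The part of these differences in the results below was not tested.

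Between lymphoid and beta cells nearly the whole module was higher in lymphoid cells. Each gene was compared within a library as a log2 ratio of CPM after 10 CPM was added to each level, which lessens the change of low genes. A gene was called when its ratio passed 0.5 the same way in every library used, among genes with at least 50 UMIs in either class in each of them. Of 83 members tested, 76 were called higher in lymphoid than in beta cells, beside 9.71% of all 11858 genes tested. Only Rps27l was called lower, beside 34.3% of all genes. The members' median log2 ratio was 1.34, against -0.42 for all genes, with 1.33, 1.41 and 1.30 in libraries 1 to 3. Plasma cell markers (Jchain, Mzb1 and Igkc, the last also a gene of B cells) summed to 34038, 10018 and 36782 CPM in lymphoid cells of libraries 1 to 3 and to 31.8, 169 and 30.3 CPM in beta Spp1-low cells, and their part in the result was not tested. The 3 members that did not pass the filter on low values were Rpl3l, Rpl39l and Rpl10l.

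Small-subunit genes had a median log2 ratio of 1.60 between lymphoid and beta cells, stalk genes 1.49 and large-subunit genes 1.27. Rps12, whose protein sits at the beak of the small subunit, stood at 3716, 4033 and 3684 CPM in lymphoid cells of libraries 1 to 3. It stood at 1064, 1014 and 1136 CPM in beta Spp1-low cells of the same libraries. Rps4x, the X-linked S4 protein of the small subunit, stood at 5236, 5407 and 4803 CPM in lymphoid cells and at 1468, 1163 and 1486 CPM in beta Spp1-low cells. Both genes were higher in lymphoid than in beta Spp1-low cells in each of libraries 1 to 3. Against all beta cells, 80 of 83 members were above 0 in each library, as were 19.5% of all genes. The median log2 ratios against all beta cells were 1.99 for Rps12 and 1.95 for Rps4x, both from the high end of the members. Rpl12, a large-subunit protein at the base of the stalk, had 1.93.

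Rpl41, which encodes a very short peptide of the large subunit, stood at 3804, 4617 and 3955 CPM in lymphoid cells and 3641, 3567 and 3607 CPM in beta Spp1-low cells of libraries 1 to 3. These values lay close together, with a median log2 ratio of 0.22, and the ratio was -0.02 where the mean of each cell's share was used. With hormone genes kept in the total it was 0.97, beside a members' median of 2.06. Rpl38 (0.71), a large-subunit protein known for its part in translating Hox mRNAs in the mouse, also lay more than 0.5 below the module in each library. In all, 4 members, Rps4x and Rps12 among them, lay more than 0.5 above the module in each library, and 7 members lay as far below it. The module is the members' own median, so members lie on both sides of it by construction. The share of all genes past this limit is not given here. The standard deviation of the median ratios was 0.47 for members and 1.18 for all genes, which are not matched for level.

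**Figure D2:**
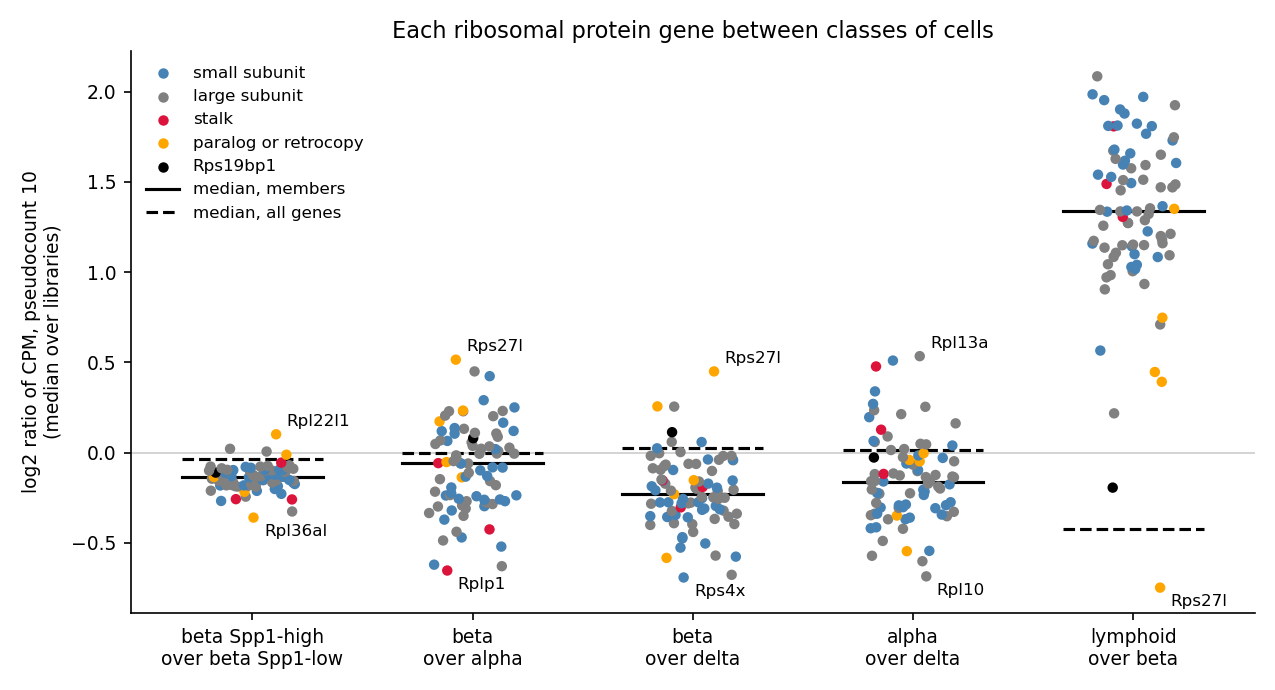
Each point is the log2 ratio of CPM (y axis, median over libraries, pseudocount 10) of 1 ribosomal protein gene between 2 classes (x axis), coloured by its part of the ribosome, with solid lines at the members' median and dashed lines at the median of all genes tested. In lymphoid over beta cells the members' median is 1.34 and that of all genes -0.42, with Rps27l at -0.75, while the other comparisons centre between -0.23 and -0.06.

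Within the lymphoid cells, B and T marker cells were compared in libraries 1 and 3, which held at least 50 of each. Members had a median log2 ratio of 0.29 for B over T marker cells, against -0.13 for all genes, and 75 of 83 were higher in B marker cells in both libraries, as were 24.6% of all genes. Called higher was 1 member, Rps20, beside 7.27% of all genes, and called lower was 1, Rps27l, beside 11.5%. Rps20, a protein of the small-subunit head, stood at 7029 and 6670 CPM in B marker cells and at 4933 and 4167 CPM in T marker cells of libraries 1 and 3. The stalk gene Rplp1 went the other way, at 4292 and 4544 CPM in B marker cells and 4877 and 6100 CPM in T marker cells. Library 2 had 81 lymphoid cells, of which 52 were T marker cells, while libraries 1 and 3 had 711 and 534 B marker cells. Its lymphoid values thus rest on a different mix.

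Between beta and alpha cells the module as a whole lay close to all genes. Of 83 members, 0 were called higher in beta cells, beside 8.44% of 11439 genes tested, and 2 were called lower, Rpl13a and Rpsa, beside 7.04%. The median log2 ratio of the members was -0.06, against 0.00 for all genes, and -0.10, 0.00, -0.15 and -0.11 in libraries 1 to 4. It became 0.10 where the mean of each cell's share was used, and without library 2 the number called lower was 4. With beta Spp1-low cells alone the median was 0.00, and Rpsa and Rpl13a were again the 2 called lower, beside 7.12% of all genes, with 0 called higher beside 9.94%. In both comparisons 0 members were called lower with the mean of each cell's share or with cells past several hormone levels kept. In the latter setting a cell past both levels counts in both classes, which draws the classes together by construction. For all beta over alpha cells, 17 of 83 members were above 0 in each library and 40 below 0, beside 33.5% and 33.5% of all genes. The standard deviation of their median ratios was 0.24, against 0.64 for all genes, which are not matched for level. Single members thus went in opposite directions but spread less than all genes, and those named below are from either end.

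Rpsa (ENSMUSG00000032518), a small-subunit protein that also acts as a laminin receptor, stood at 1719, 1325, 1530 and 1371 CPM in beta Spp1-high cells and 1571, 1542, 1612 and 1536 CPM in beta Spp1-low cells of libraries 1 to 4. In alpha cells it stood at 2478, 2437, 2347 and 2602 CPM. Every alpha value lay above every beta value, and the median log2 ratio of beta over alpha cells was -0.62. Rps24, a small-subunit gene mutated in some human Diamond-Blackfan anaemias, had -0.52. On the other side, Rps2 (0.29) and Rps3 (0.25), both at the mRNA entry of the small subunit, were higher in beta cells in each library with hormone genes out of the total.

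Rpl13a (ENSMUSG00000074129), a large-subunit protein that represses translation of some inflammatory mRNAs in human cells, stood at 864, 994, 884 and 943 CPM in beta Spp1-high cells and 888, 1079, 950 and 1008 CPM in beta Spp1-low cells. In alpha cells it stood at 1368, 1583, 1409 and 1588 CPM, above every beta value, and the median log2 ratio was -0.63. Rpl13 of the large subunit had -0.49. Rpl39, which lines the exit tunnel, stood at 1507, 1251, 1632 and 1123 CPM in beta Spp1-high cells and 1467, 1427, 1684 and 1260 CPM in beta Spp1-low cells. In alpha cells it stood at 1085, 1017, 1216 and 1023 CPM, lower within each library though the ranges overlapped. Its median log2 ratio was 0.45, or -0.04 with hormone genes kept in the total.

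These directions depend on the total used. With hormone genes kept in the total, the median of all genes between beta and alpha cells moved by -0.26. Rps2 then had -0.19 and Rps3 -0.21, and these, like Rpl39, lay above the members' median of -0.52. Rpsa had -1.12 and Rpl13a -1.10 under that total, and 18 members were called lower, beside 13.2% of all genes.

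**Figure D3:**
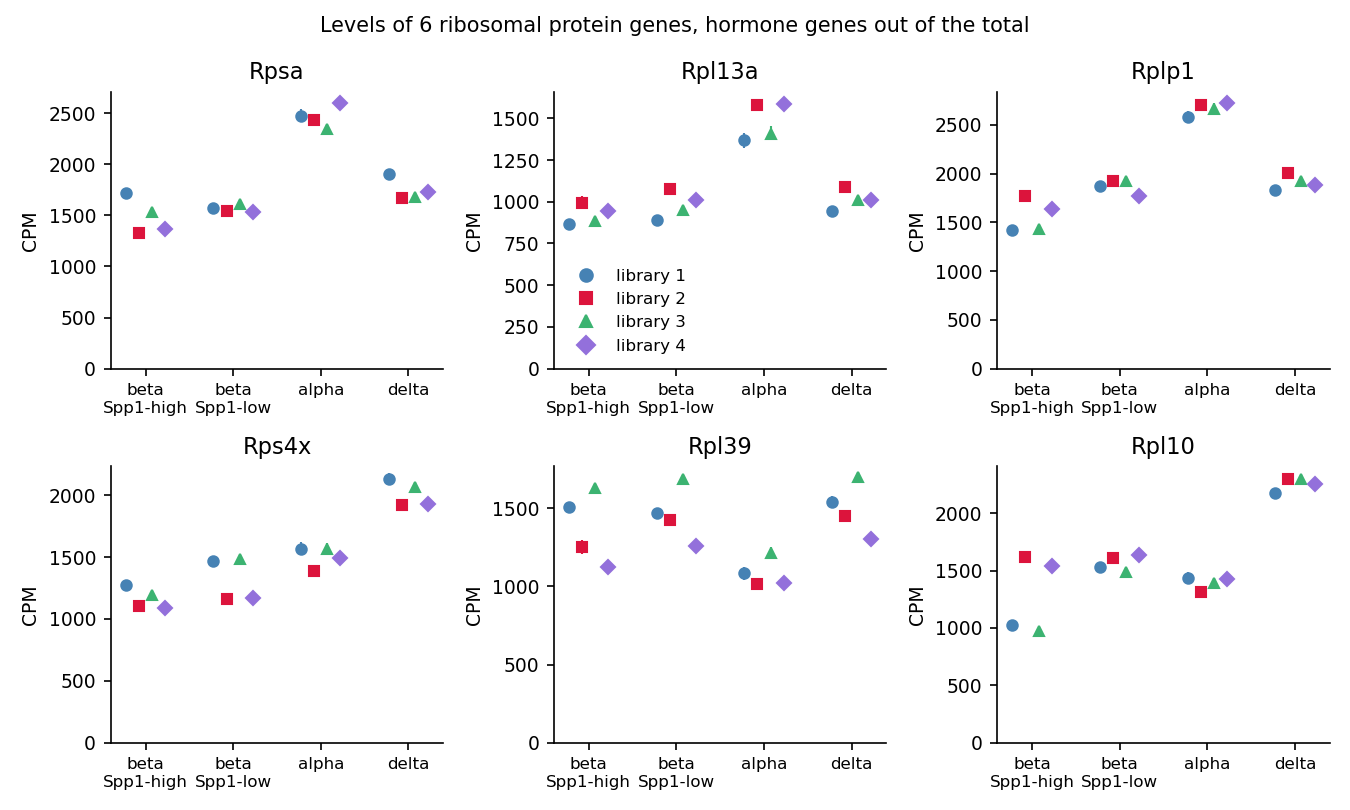
CPM without hormone genes (y axes) of 6 ribosomal protein genes in beta Spp1-high, beta Spp1-low, alpha and delta cells (x axes), with 1 point per library and exact 95% Poisson intervals as bars where wider than the point. Rpsa and Rpl13a are higher in alpha than in beta cells of every library, Rpl39 is lower (with hormone genes kept in the total its beta over alpha ratio is -0.04), and Rps4x and Rpl10 are highest in delta cells among these classes.

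Between beta and delta cells most members were lower in beta cells. Of 83 members, 62 lay below 0 in each of the 4 libraries and 4 above 0, while 27.6% and 33.6% of all genes did so. The members' median was -0.23, with -0.27, -0.18, -0.28 and -0.18 in libraries 1 to 4, against 0.03 for all genes. Beta Spp1-high cells made up 355 of 589, 131 of 3342, 377 of 733 and 219 of 2221 beta cells in libraries 1 to 4. Beta Spp1-low cells alone were not compared with delta cells, and the part of this mix was not tested. Called lower were 3 members, Rps4x, Rps12 and Rps9, beside 5.26% of 11476 genes, and 0 were called higher, beside 5.18%. With cells past several hormone levels kept, so that some count in both classes, 0 were called lower. With mitochondrial genes and Gm42418 out of the total 1 was called lower. Rps4x stood at 1275, 1105, 1193 and 1086 CPM in beta Spp1-high cells, 1468, 1163, 1486 and 1166 CPM in beta Spp1-low cells and 2132, 1924, 2067 and 1929 CPM in delta cells. The delta values lay above all beta values, and the median log2 ratio was -0.69. Rps12 had -0.58 and Rps9, a small-subunit protein that binds ribosomal RNA early in assembly, had -0.53.

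Rpl10, an X-linked protein that joins the large subunit late in its assembly, stood at 1028, 1615, 971 and 1536 CPM in beta Spp1-high cells and 1528, 1608, 1487 and 1631 CPM in beta Spp1-low cells. In delta cells it stood at 2174, 2298, 2293 and 2258 CPM and in alpha cells at 1436, 1309, 1395 and 1426 CPM. Delta cells were thus the highest of the hormone classes in every library, and the median log2 ratio of beta over delta cells was -0.68. Rpl41 was among the few members higher in beta cells, with 0.25, or -0.30 with hormone genes kept in the total. With hormone genes kept in the total the median of all genes moved by -0.30 between beta and delta cells. The number of members called lower was then 57, beside 12.6% of all genes.

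Alpha and delta cells also differed in the makeup of the module. The members' median log2 ratio of alpha over delta cells was -0.16, against 0.01 for all genes, and 50 of 83 members were below 0 in each library, as were 35.1% of all genes. Called lower was 1 member, Rpl10, at -0.69, beside 10% of 8801 genes, and 0 were called higher, beside 7.51%. Without library 4 the number called lower was 4, and without library 3 the number called higher was 1. Rpl23 (-0.60), a large-subunit protein that binds Mdm2 in human cells, Rpl3 (-0.57), which shapes the peptidyl transferase centre, and Rps3 (-0.54) followed. Rpl13a (0.53), Rpsa (0.51) and the stalk gene Rplp1 (0.48) lay highest, more than 0.5 above the module in each library. Rpl13a and Rpsa thus stood above both beta and delta cells in alpha cells of every library.

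The stalk of the large subunit, formed by Rplp0 with Rplp1 and Rplp2, recruits the elongation factors. It took 5.18%, 5.37%, 5.03% and 5.21% of member UMIs in alpha cells and 3.94%, 4.21%, 3.86% and 4.31% in delta cells of libraries 1 to 4. In beta Spp1-low cells it took 4.23%, 4.40%, 4.12% and 4.41%. The alpha values lay above every beta and delta value. Rplp1 stood at 1421, 1768, 1432 and 1634 CPM in beta Spp1-high cells, 1871, 1925, 1924 and 1768 CPM in beta Spp1-low cells and 2582, 2700, 2663 and 2728 CPM in alpha cells. It had the lowest ratio of all members between beta and alpha cells, -0.65. Rplp2 had -0.43. Rplp0 overlapped between both, at 1510, 1492, 1390 and 1607 CPM in beta Spp1-low cells and 1538, 1350, 1330 and 1498 CPM in alpha cells, and the 3 stalk genes therefore did not move as a block.

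The summed UMIs of small-subunit genes over those of large-subunit genes also differed by class. The ratio was 0.893, 0.861 and 0.878 in lymphoid cells of libraries 1 to 3, against 0.746, 0.710 and 0.755 in beta Spp1-low cells of those libraries and 0.702 in library 4. Alpha cells had 0.761, 0.748, 0.765 and 0.734, and delta cells 0.789, 0.766, 0.792 and 0.753. Within each library the order from beta Spp1-low to alpha, delta and lymphoid cells was the same. A high ratio was not particular to lymphoid cells. Cells with endothelial markers had 0.854, 0.811, 0.849 and 0.811 in libraries 1 to 4, and cells with ductal markers 0.824 and 0.818 in libraries 1 and 3. Cells with macrophage markers had 0.825, 0.861 and 0.829 in libraries 1 to 3. All of these lay above every beta, alpha and delta value. UMIs are not divided by length and capture can differ between genes, so the ratio compares classes and does not give the balance of subunits in a cell.

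Rps27l, Rpl22l1 and Rpl36al followed patterns unlike those of their partners. Rps27l (ENSMUSG00000036781), a paralog of Rps27 and a known target of p53, stood at 400, 417 and 382 CPM in lymphoid cells of libraries 1 to 3. It stood at 618, 610, 600 and 577 CPM in beta Spp1-high cells and at 787, 617, 783 and 615 CPM in beta Spp1-low cells of libraries 1 to 4. Alpha cells had 439, 451, 454 and 485 CPM, and delta cells 464, 478, 417 and 491 CPM. Beta cells were thus the highest of the hormone classes in every library, with a median log2 ratio of 0.51 over alpha and 0.45 over delta cells. With hormone genes kept in the total these ratios were 0.03 and -0.10.

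The ratio of Rps27l for lymphoid over beta cells was -0.75, while the partner Rps27 was higher in lymphoid cells, at 4844, 4727 and 5765 CPM in lymphoid cells and 1495, 1420 and 1962 CPM in beta Spp1-low cells of libraries 1 to 3. Rps27l was lower still, at -1.71, without the 10% of cells with the most UMIs in each class, and -0.03 with hormone genes kept in the total. Among lymphoid cells, it stood at 269 and 317 CPM in B marker cells and 724 and 617 CPM in T marker cells of libraries 1 and 3, a median log2 ratio of -1.17. Set per 100 UMIs of Rps27, Rps27l had 8.26, 8.83 and 6.62 in lymphoid cells of libraries 1 to 3, and 52.6, 43.5, 39.9 and 48.9 in beta Spp1-low cells of libraries 1 to 4. Cells with macrophage markers had 61.2, 41.7 and 50.3 in libraries 1 to 3, so the low value was not shared by all immune cells.

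Rpl22l1, which in the mouse is raised when its partner Rpl22 is lost, stood at 556, 628, 484 and 650 CPM in beta Spp1-high cells and 448, 672, 392 and 702 CPM in beta Spp1-low cells. Rpl22, an RNA-binding protein of the large subunit needed for T cell development in the mouse, stood at 714, 564, 700 and 574 CPM in beta Spp1-high cells and 752, 605, 795 and 593 CPM in beta Spp1-low cells. In both classes Rpl22l1 was highest in libraries 2 and 4 and Rpl22 highest in libraries 1 and 3. Per 100 UMIs of Rpl22, Rpl22l1 had 37.9, 31.0 and 36.6 in lymphoid cells of libraries 1 to 3, below every hormone class. It had 59.5, 111, 49.3 and 118 in beta Spp1-low cells, 69.4, 91.3, 71.8 and 90.8 in alpha cells and 79.7, 85.7, 71.6 and 99.5 in delta cells of libraries 1 to 4. Cells with endothelial markers had 31.4, 36.7, 32.6 and 44.3 in libraries 1 to 4. Cells with macrophage markers had 32.2, 41.2 and 32.6 in libraries 1 to 3, so the low value was not particular to lymphoid cells.

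Rpl36al, the autosomal copy of the X-linked Rpl36a, varied more between libraries than any other member in beta Spp1-high cells. It stood at 527, 1128, 489 and 1172 CPM there, and at 789, 1266, 724 and 1277 CPM in beta Spp1-low cells. Alpha cells had 882, 928, 832 and 987 CPM and delta cells 1131, 1531, 1120 and 1575 CPM. Per 100 UMIs of Rpl36a, Rpl36al had 52.7, 48.3 and 43.3 in lymphoid cells of libraries 1 to 3. It had 149, 273, 120 and 302 in beta Spp1-low cells, 137, 152, 119 and 156 in alpha cells and 155, 213, 138 and 230 in delta cells. Cells with endothelial markers had 51.4, 86.1, 43.2 and 93.0 in libraries 1 to 4, so those of libraries 1 and 3 were as low as lymphoid cells. Cells with macrophage markers had 126, 130 and 109 in libraries 1 to 3. In each hormone class libraries 2 and 4 were higher than libraries 1 and 3, and the difference was widest in beta cells. Xbp1, the gene deleted in the study, stood at 56.4, 209, 46.3 and 212 CPM in beta Spp1-high cells of libraries 1 to 4 and at 128, 228, 109 and 222 CPM in beta Spp1-low cells. It stood at 200, 171, 179 and 165 CPM in alpha cells and 201, 236, 195 and 224 CPM in delta cells, so in beta and delta cells it too was lower in libraries 1 and 3. Where the counted reads lie relative to the deleted part is unknown here, no genotype was read from these levels, and their part in the Rpl36al pattern was not tested.

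Rpl7l1, a nucleolar relative of Rpl7 that acts in making the large subunit, stood at 98.2, 97.9 and 108 CPM in lymphoid cells of libraries 1 to 3. In libraries 1 to 4 it stood at 69.8, 88.7, 69.6 and 95.6 CPM in beta Spp1-low cells and 60.5, 65.8, 57.4 and 79.6 CPM in alpha cells, with beta cells higher in each. Rpl3l, known from striated muscle, had 91 UMIs over all kept cells, Rpl39l, known from testis, 127, and Rpl10l, the testis copy of Rpl10 in the mouse, 1. No comparison was made for these 3. Rps27rt, a retrocopy of Rps27, shares 91.1% of its 50-base windows with the Rps27 transcript, so its level of 46.6 to 51.6 CPM in lymphoid and 13.2 to 16.8 CPM in beta Spp1-low cells is uncertain. The other 7 paralogs share 0% with their partner. Rps19bp1 stood at 39.8, 46.4 and 41.6 CPM in lymphoid cells and 51.7, 56.9 and 48.8 CPM in beta Spp1-low cells of libraries 1 to 3, and did not follow the module.

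**Figure D4:**
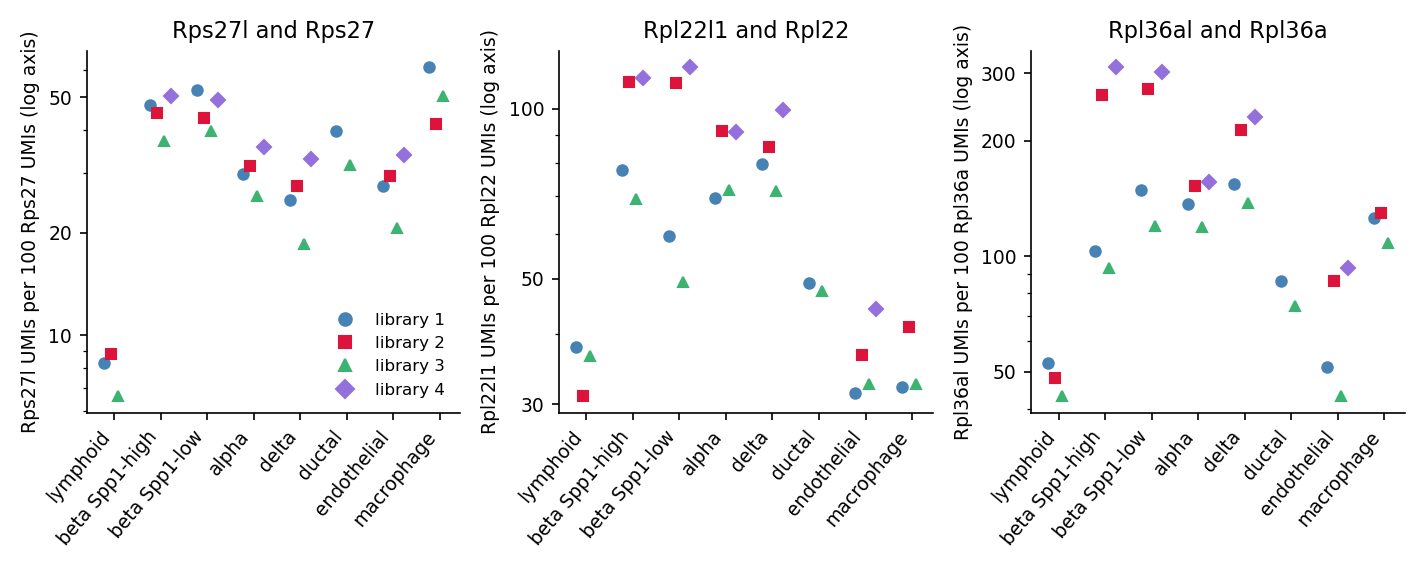
UMIs of Rps27l, Rpl22l1 and Rpl36al per 100 UMIs of the partner gene (y axes, log scale) in 8 classes of cells (x axes), with 1 point per library of at least 50 cells. Lymphoid cells have the lowest Rps27l values, 6.62 to 8.83, and for Rpl22l1 and Rpl36al the beta points of libraries 2 and 4 lie above those of libraries 1 and 3.

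Between beta Spp1-high and beta Spp1-low cells 0 members were called higher and 0 lower, beside 0.244% and 0.122% of 10674 genes. The shift was small but even. Of 83 members, 71 were below 0 in each of the 4 libraries, as were 21.2% of all genes, and 0 were above 0 in each. The median log2 ratio was -0.13, with -0.16, -0.10, -0.24 and -0.09 in libraries 1 to 4, against -0.04 for all genes. Members with the lowest ratios were Rpl36al (-0.36), Rpl10 (-0.33), Rps12 (-0.27) and the stalk genes Rplp0 and Rplp1 (both -0.26). Rpl10 had -0.57, 0.01, -0.61 and -0.09 in libraries 1 to 4, so its difference was mostly in libraries 1 and 3. Rpl22l1 (0.10), Rpl10a (0.02) and Rpl3 (0.01) lay highest, each with libraries that differed in sign.

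Spp1 itself took 3.20%, 2.34%, 2.96% and 2.69% of non-hormone UMIs in beta Spp1-high cells and 0.151%, 0.0958%, 0.159% and 0.123% in beta Spp1-low cells of libraries 1 to 4. With Spp1 out of the total, a setting added once the data had been seen, the members' median was -0.10. With hormone genes kept in the total it was -0.012, and the median of all genes moved by 0.10. Hormone genes took 35.0%, 55.9%, 36.6% and 54.8% of all UMIs in beta Spp1-high and 47.3%, 57.8%, 45.0% and 56.7% in beta Spp1-low cells. Acinar markers summed to 4732, 0, 7.84 and 1.00 CPM in beta Spp1-high and 153, 0.546, 7.60 and 5.51 CPM in beta Spp1-low cells. Of the 5 acinar markers, 5 were at 0 in beta Spp1-high cells of library 2 and 3 in those of library 4. Ductal markers summed to 1214 to 1578 CPM in beta Spp1-high and 1265 to 1384 CPM in beta Spp1-low cells. The 2 neutrophil markers summed to 685 and 134 CPM in beta Spp1-high and 16.9 and 19.5 CPM in beta Spp1-low cells of libraries 2 and 4, and to under 1 CPM in libraries 1 and 3. The part of other cells in the shift was not tested.

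Between libraries, members varied less within a class than all genes, which are not matched for level. The part of level and of counting error in this difference was not tested. In beta Spp1-low cells the median member had a range of 0.21 log2 units from the lowest to the highest library, against 0.27 for all genes, and 9 of 83 members reached 0.5, beside 20.7% of 9749 genes. The widest were Rpl22l1 (0.82), Rpl36al (0.81), Rps29 (0.66), Rps27 (0.64) and Rps21 (0.59). The last 3, all of the small subunit, were highest in library 3. Rps29, a small zinc-binding protein, stood at 2367, 2120, 2916 and 1842 CPM in libraries 1 to 4. In alpha cells it stood at 2463, 2491, 3000 and 2340 CPM and in delta cells at 2713, 3085, 3393 and 2643 CPM, so library 3 was highest in each hormone class. In beta Spp1-high cells 9 of 82 members reached 0.5, beside 32.5% of 6481 genes, led by Rpl36al (1.24), Rpl10 (0.73), Rplp0 (0.64) and Rps6 (0.61), the small-subunit protein phosphorylated by S6 kinase. In alpha cells 0 of 82 did so, beside 6.95% of 6979 genes, in delta cells 1 of 83, beside 11.3% of 8218, and in lymphoid cells 1 of 80, beside 27.7% of 1725. Cells in none of these classes are a mix, and there 24 of 82 did so, beside 47.9% of 6645.

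Other genes of the translation machinery were read from 3 lists. Of 19 genes outside the module whose mRNAs are known TOP mRNAs, 13 were called higher in lymphoid than in beta cells, beside 9.71% of all genes, and 0 lower, beside 34.3%. All 19 were above 0 in each library, as were 19.5% of all genes, at a median log2 ratio of 0.98. Fau, whose product is cut to give a small-subunit protein, stood at 5546, 5624 and 5752 CPM in lymphoid cells and 1896, 1736 and 2047 CPM in beta Spp1-low cells of libraries 1 to 3. Rack1, a scaffold on the small subunit, stood at 1926, 2377 and 1942 CPM in lymphoid and 601, 727 and 610 CPM in beta Spp1-low cells. The elongation factor Eef1a1 stood at 7177, 7760 and 7128 CPM in lymphoid and 3754, 3776 and 3784 CPM in beta Spp1-low cells. Each was higher in lymphoid cells in every library, with median log2 ratios of 1.61 for Fau, 1.74 for Rack1 and 0.94 for Eef1a1, the last below that of most members.

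Of 33 genes of ribosome biogenesis, 6 were called higher and 2 lower in lymphoid than in beta cells, beside the same 9.71% and 34.3%, at a median of 0.11 against -0.42 for all genes. Nhp2 (1.58) and Dkc1 (1.28), of the complex that makes pseudouridine in ribosomal RNA, and the nucleolar protein Ncl (0.92) were among those higher, and the nucleolar GTPase Gnl3l (-1.99) was lower. Of 78 mitochondrial ribosomal genes, 2 were called higher and 13 lower in lymphoid cells, both smaller shares than among all genes, at a median of -0.26. Between beta and alpha cells 14 of these 78 were called higher in beta cells, beside 8.44% of all genes, and 0 lower, beside 7.04%, at a median of 0.39. Mrps14, of the small mitochondrial subunit, had 1.11, and Mrpl42, Mrpl50 and Mrpl20, of the large one, had 0.85, 0.85 and 0.84. The same comparison gave 0.08 for the TOP genes, with 1 called higher, the nascent chain factor Btf3 (0.75), and 1 lower, the RNA-binding protein Hnrnpa1 (-0.73). Between alpha and delta cells 6 of 77 mitochondrial ribosomal genes were called lower in alpha cells, beside 10% of all genes, and 0 higher, beside 7.51%, at a median of -0.28.

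Within a class, the share of the module varied with the mitochondrial share of the cells. Mitochondrial UMIs are part of the total, so a higher mitochondrial share lowers the share of members in part by construction. Cells of each class and library were ranked by the mitochondrial share of non-hormone UMIs and divided into 4 groups of equal size. In alpha cells the group with the highest mitochondrial share held 3.86%, 6.39%, 6.62% and 9.07% of UMIs from members in libraries 1 to 4, against 13.0%, 12.0%, 12.9% and 12.1% in the lowest group. The highest group had medians of 15.2%, 15.7%, 13.2% and 8.67% mitochondrial UMIs. In beta Spp1-low cells the same groups held 9.75%, 8.29%, 10.7% and 8.66%, against 11.2%, 11.8%, 12.3% and 11.2%. In lymphoid cells of libraries 1 to 3 the highest group held more than the lowest, with 28.9%, 29.1% and 29.5% against 22.0%, 25.3% and 22.9%. The middle groups held 29.4% to 31.4%, so only the lowest group stood apart and the share did not rise steadily. With cells limited to at least 1000 genes and at most 10% mitochondrial UMIs, the alpha share was 11.3%, and 4 members were called lower in beta than in alpha cells.

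**Figure D5:**
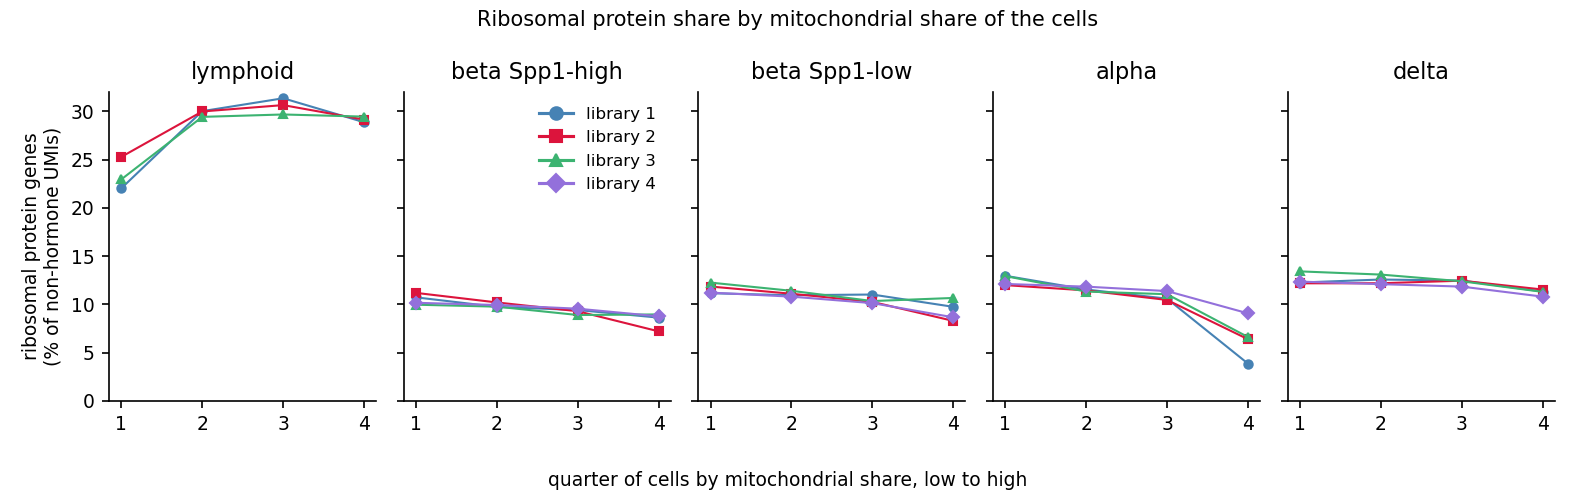
The share of non-hormone UMIs from ribosomal protein genes (y axis, percent) in 4 equal groups of cells ranked from low to high mitochondrial share (x axis), for 5 classes (panels), with 1 line per library of at least 50 cells. It falls to 3.86% to 9.07% in the last group of alpha cells and is lowest in the lowest group of lymphoid cells.

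Beta cells were also ranked by the share of all their UMIs that came from hormone genes. In beta Spp1-low cells the group with the most hormone RNA held 11.8%, 11.6%, 12.1% and 11.1% of its remaining UMIs from members in libraries 1 to 4, against 9.98%, 9.41%, 10.2% and 9.48% in the group with the least. In beta Spp1-high cells these values were 10.2%, 11.1%, 10.0% and 10.3% against 9.32%, 9.20%, 8.93% and 9.10%, and in delta cells 13.0%, 12.7%, 13.4% and 12.7% against 12.2%, 11.6%, 12.0% and 11.2%. The direction was the same in each of the 4 libraries of all 3 classes. In alpha cells library 1 went the other way, with 10.3% against 11.3%, and libraries 2 to 4 had 11.4%, 11.0% and 13.3% against 9.61%, 10.7% and 9.69%. Ranked by UMIs per cell, alpha cells held 12.7%, 11.8%, 12.5% and 12.6% in the deepest group, against 6.23%, 6.99%, 7.54% and 9.29% in the shallowest. Beta Spp1-low cells held 11.4%, 11.3%, 11.7% and 11.0% against 10.7%, 8.60%, 11.3% and 8.79%. Delta cells held 12.5%, 12.0%, 12.3% and 11.7% against 10.7%, 12.0%, 12.4% and 12.2%, lower in the deepest group of libraries 2 to 4. The part of depth in the order of the classes was not tested.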

How the data were processed

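Dispersed islet cells from 4 samples, 2 Xbp1{beta}-/- and 2 Xbp1fl/fl, were profiled by 10x single-cell RNA-seq. The deposited values are UMI counts per gene and cell, not normalized, which the authors made with Cell Ranger 6.1.2, per the file headers. Per the submitters' processing notes the build was mm10, and the sources used here do not name the annotation. The identifiers of all 86 members were found in GENCODE M21, which gave their coordinates. The number after each barcode was taken as its library, and columns of other samples numbered 0. Libraries held 82963911, 178396311, 85266513 and 110800927 UMIs.

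Cells were kept with at least 500 genes and at most 20% mitochondrial UMIs. Lymphoid cells had at least 3 UMIs from at least 2 B or T markers, making up at least 0.05% of UMIs, and were called B or T marker cells by the larger sum. Other classes had 1 marker list at 0.2% of UMIs or more, or Ppy at 3%. No doublet caller was run, and cells past several hormone levels were left out. For each class in each library, UMIs were added up over its cells and scaled to the total without 7 hormone genes, which gave CPM, and log2 ratios used a pseudocount of 10 CPM. Classes entered with at least 50 cells and genes with at least 50 UMIs in either class in each library. As the sample behind each library is unknown, the genotype comparison was not made and no test was run. Intervals at the 95% level are exact Poisson intervals for CPM and Clopper-Pearson intervals for shares, which hold counting error alone. Near-identical copies of ribosomal protein genes are frequent in the mouse genome, and how reads shared with them were counted is unknown here.

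Named members were, for each comparison, the 5 with the highest and the 5 with the lowest ratio or deviation from the module, the 5 with the widest range in beta cells, the paralog pairs and the stalk genes. Some members that this rule takes in are not reported here. Others named were chosen after their values were seen, as were the tract rule and its window. The members and lists were chosen with earlier results of these data known. The ratio step was tested on simulated data. Alternatives were another total, a stricter cell filter, other cuts, cells past several hormone levels kept, the deepest 10% of cells left out, the mean of each cell's share, a lower pseudocount of 1, low counts kept unfiltered, a larger call threshold and each library left out. Python 3.11.15, numpy 2.4.6, scipy 1.17.1, pandas 2.3.3 and matplotlib 3.10.9 were used.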

Additional observations from a re-analysis of the deposited data

Results flagged for a closer look

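The matrix also holds rows for ribosomal protein pseudogenes, which are outside the rule for members and entered no comparison. In kept cells Rpl10-ps3 had 7255 UMIs, Rpl9-ps6 had 4750 and Rpl36a-ps1 had 640, each above the 3 counts that a count of 0 allows. Rpl10-ps3 stood at 33.6, 32.6 and 45.4 CPM in lymphoid and 19.3, 27.9 and 27.1 CPM in beta Spp1-low cells of libraries 1 to 3. Rpl9-ps6 stood at 34.9, 49.8 and 35.3 CPM in lymphoid and 12.2, 16.7 and 16.7 CPM in beta Spp1-low cells.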

How the results depend on the processing

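No paired analysis was possible because the labels number the samples within each genotype but the sample behind each library is unknown; classes of cells were compared within libraries throughout. Of 1194 values recomputed, 858 came from other settings and the rest from leaving out a library. The latter share libraries with the SD they are judged by, so they tend to stay within it. In all, 1011 stayed within 1 SD over libraries (counts within 1.5 times) and 182 moved further, among them values that changed sign. The median for beta over alpha cells reversed. The median of 0.00 for beta Spp1-low over alpha cells took both signs. With hormone genes kept in the total, shares were 5.16%, 5.07%, 7.87% and 9.02% in beta Spp1-high, beta Spp1-low, alpha and delta cells. Members' median ratios were -0.012 for beta Spp1-high over low, -0.52 for beta and -0.58 for beta Spp1-low over alpha, -0.76 for beta over delta, 2.06 for lymphoid over beta and -0.22 for alpha over delta. Members called lower were 18, 18, 57 and, in lymphoid cells, 0, beside 13.2%, 17.9%, 12.6% and 14.1% of all genes. Hormone genes enlarge the total of beta cells by construction. With mitochondrial genes and Gm42418 out, the 4 shares were 10.1%, 11.2%, 11.9% and 12.6%, the alpha over delta median -0.092 with 2 members called higher, and 4 and 1 were called lower over alpha and delta. The stricter cell filter gave an alpha share of 11.3%, 4 members lower in beta than alpha cells and 1 higher in alpha than delta cells. With cells past several hormone levels kept, the alpha over delta median was -0.10 and 0 members were called lower in it or in beta cells. Cells past both levels of a comparison then count in both of its classes, which draws these together by construction. Without the deepest 10% of cells, alpha cells had 10.3%, lymphoid cells 29.1% with a ratio of 1.51, and alpha over delta -0.26 with 1 member higher and 5 lower. The mean of each cell's share gave 9.80% in alpha and 28.6% in lymphoid cells, and ratios of 0.10 for beta over alpha, the reversal, 0.17 for beta Spp1-low over alpha, 1.40 for lymphoid over beta and -0.34 for alpha over delta, with 0, 0 and 8 members lower in those against alpha or delta cells. A threshold of 1 left 0 members called lower in these comparisons. With Spp1 out of the total, chosen after seeing the data, the Spp1-high share was 9.95%. The cause of these changes was otherwise not tested.

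With each library left out in turn, the beta over alpha median ranged from -0.14 (without library 2, with 4 members called lower) to -0.050, and counts called lower there from 2 to 4. For alpha over delta, 0 to 1 members were called higher (1 without library 3) and 1 to 4 lower (4 without library 4). With 4 libraries not tied to animals, these ranges show the spread between libraries only, and depth limits Rpl3l, Rpl39l and Rpl10l.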

Other observations

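Cells past more than 1 hormone level, which entered no class, held 11.7%, 11.5%, 11.5% and 11.2% of non-hormone UMIs from ribosomal protein genes in libraries 1 to 4, at medians of 50482, 30997, 46467 and 36430.5 UMIs per cell. Cells with at least 3% of UMIs from Ppy, the pancreatic polypeptide gene, held 11.6% and 11.3% in libraries 2 and 4, the only ones with at least 50 such cells. Barcodes that failed the filter on genes and mitochondrial UMIs numbered 494, 2222, 553 and 572, and held 4.92%, 4.20%, 3.99% and 2.35%, each lower than any class of kept cells with at least 50 cells.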
